A study of Mus musculus with 30 samples.

Results

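Rod photoreceptors turn light into an electrical signal in their outer segment, and 34 genes that build or run this structure are described here across the 10 groups of a mouse retina RNA-seq study. The genes were taken by symbol from a named list and their transcripts were summed per gene, giving 34 of the 42439 gene IDs in the tables. They fall into 8 roles. There are 6 genes of transducin and phosphodiesterase, 3 of the channel and exchanger, and 7 of the shut-off of the response with its regulators. Cyclic GMP synthesis has 4 genes, the disc 4, and the cilium and axoneme 4. Another 3 are chaperone or transport genes, and 3 are genes of the matrix and rod-derived support. Poly(A) RNA of neural retina was sequenced in 30 libraries from Abca4-/-Rdh8-/- mice, male and female, on a C57BL/6J background and 4 to 6 weeks old, in which 2 genes for the clearance of retinal after light, a disc transporter and a retinol dehydrogenase, are deleted. In the mixture experiment, 4 groups of 3 libraries were BMT before light (bromocriptine, metoprolol and tamsulosin), MDB before light (metoprolol, doxazosin and bromocriptine), light with DMSO, and no light with DMSO. In the single-drug experiment, 6 groups of 3 libraries were bromocriptine (BRM), metoprolol (MTP), tamsulosin (TAM) or doxazosin (DOX) before light, light with DMSO, and no light with DMSO, and light with DMSO is called light alone below. Bromocriptine activates dopamine receptors, metoprolol blocks beta-adrenergic receptors, and tamsulosin and doxazosin block alpha-adrenergic receptors. Light means white light of 10000 lux for 30 min, injections were given 30 min earlier, and retinas were taken 24 h after the exposure, while all animals were kept in a cycle of 12 h of dim light (at most 10 lux) and 12 h of dark. All groups, the no-light groups too, carry both deletions, and no group received drug without light. Whether each library comes from a separate animal is not stated, so p-values measure the spread between libraries, which may be technical.

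Light absorbed by the visual pigment activates the G protein transducin, which releases a phosphodiesterase that hydrolyses cyclic GMP, and the fall of cyclic GMP closes cation channels in the outer segment membrane. Arrestin, a receptor kinase and a GTPase-activating complex end the response, and guanylate cyclases with their calcium-binding activators restore cyclic GMP. The machinery sits in and around a stack of membrane discs that is carried on a modified cilium, renewed daily, and surrounded by an extracellular matrix.

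All 34 genes passed the filter on low counts in both experiments, as 16007 genes did in the mixture experiment and 16249 in the single-drug experiment. Together they took a large share of all gene counts. Both show abundance in whole retina, and which cells gave the counts was not tested. The share was 7.92, 7.09 and 8.84% in the 3 BMT libraries, 6.57, 7.37 and 7.35% with MDB, 5.27, 4.93 and 5.72% after light alone and 8.33, 7.001 and 8.60% without light. The single-drug libraries had 6.17, 7.04 and 5.70% with BRM, 7.57, 6.75 and 6.61% with MTP, 6.71, 6.26 and 8.51% with TAM, 8.02, 5.77 and 6.63% with DOX, 4.48, 3.55 and 4.44% after light alone and 8.11, 8.04 and 8.50% without light. The light libraries of each experiment lay below all libraries of every other group of that experiment. Since these are whole retinas, fewer rods and less RNA per rod cannot be told apart in any of the values that follow.

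**Figure D1:**
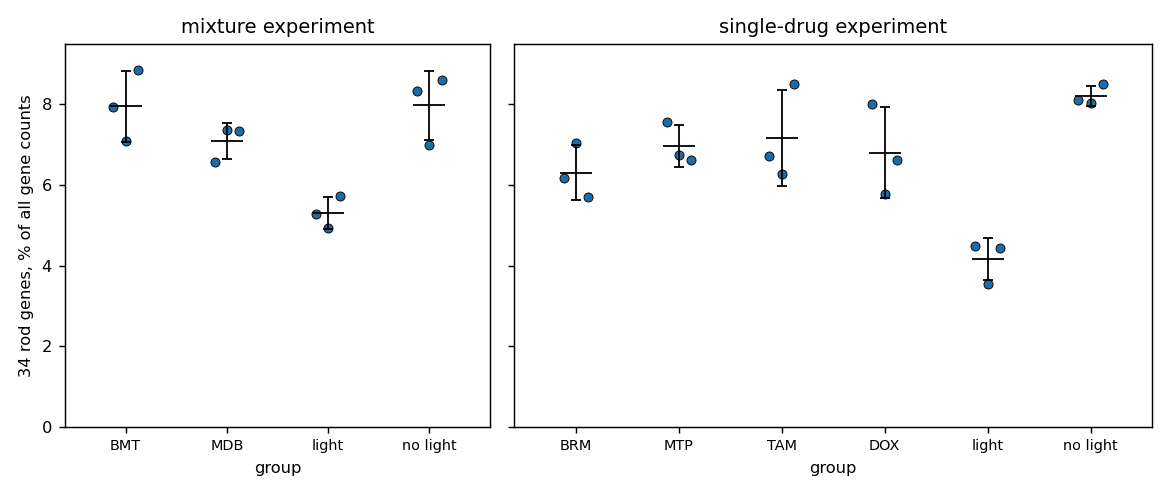
Share of all gene counts taken by the 34 rod genes (%, vertical axis) in each library (points), with the group mean and SD (bars), for the mixture experiment at left and the single-drug experiment at right. Light alone averaged 5.31% and 4.16%, against 7.98% and 8.22% without light, and the drug group means lay between, that of BMT at 7.95%.

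Libraries of the mixture experiment held 18.5 to 25.8 M gene counts and those of the single-drug experiment 12.0 to 22.2 M, TAM replicate 1 having the fewest. No library pair within a group agreed within sampling noise. The summed level of 6 lens fibre markers, genes of a tissue that is not retina, was 3.87 to 1037 CPM (counts scaled to a common library size) with BMT, 1073 to 1547 CPM with MDB, 16.4 to 465 CPM after light and 24.3 to 2259 CPM without light. It was 863 to 2451 CPM with BRM, 488 to 627 CPM after light and 85.4 to 1062 CPM without light in the single-drug experiment. Adding a lens fibre score to the fit left 26 members called with MDB and 28 with BRM against light, 24 and 28 without the score. The score in the fit ended the calls of Sag and Impg1 with MTP and of Sag and Aipl1 with DOX, and no other member call, where the summed lens level was 16.8 to 1331 CPM with MTP and 42.7 to 2033 CPM with DOX. The summed level of 8 Müller glia markers was 2008 to 3188 CPM with BMT, 3088 to 3522 CPM with MDB, 1713 to 1776 CPM after light and 2225 to 3393 CPM without light, and 3471 to 3814 CPM with BRM, 2642 to 3107 CPM with MTP, 1699 to 3424 CPM with TAM, 2043 to 3195 CPM with DOX, 2225 to 2401 CPM after light and 2609 to 2946 CPM without light in the single-drug experiment. These 8 genes did not move together after light, Glul being lower (-1.87 and -1.73 on the log2 scale in the mixture and single-drug experiments), Slc1a3 higher (0.75 and 0.89), Rlbp1 lower in the mixture experiment (-0.39), and the other 5 not called in either. Pigment epithelium markers, 8 in the list, summed to 658 to 890 CPM with BMT and 269 to 919 CPM with MDB. They had 289 to 1122 CPM after light and 305 to 682 CPM without light. In the single-drug experiment 7 passed the filter, with 388 to 770 CPM after light and 225 to 1169 CPM without light. There they had 433 to 1043 CPM with BRM, 346 to 886 with MTP, 335 to 924 with TAM and 278 to 527 with DOX. The part of these marker levels in the results was not tested. No marker gene of these lists was at 0 in any group. Abca4, deleted in all groups and itself the transporter of the disc rim, still gave counts, whose place relative to the deletion was not analysed here.

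Levels were compared between genes per transcript length, as fragments per kilobase of transcript and per mapped total (FPKM). Gnat1, the alpha subunit of rod transducin, stood highest at 4347 ± 256 FPKM after light and 7181 ± 714 FPKM without light in the mixture experiment (SD, n = 3 each). Without light the next were Gnb1 at 3769 ± 576, Pdc at 3445 ± 435, Pde6g at 3247 ± 366 and Sag at 3173 ± 57.2 FPKM, 4 genes whose neighbours in this order did not differ beyond their SDs. After light the order below Gnat1 changed: Sag stood second at 2784 ± 354 FPKM, above Pde6g at 1880.1 ± 124 and Gnb1 at 1857 ± 219 FPKM. Gucy2f and Mak were lowest without light, at 68.9 ± 7.93 and 67.7 ± 8.62 FPKM, and after light Gucy2f stood at 40.5 ± 5.07 and Mak at 113 ± 2.07 FPKM.

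The first comparison asks how the rod genes stood 24 h after bright light without drug, as the log2 fold change of light over no light with its SE. In the mixture experiment 26 of 34 members were lower and 1 higher after light by edgeR's quasi-likelihood test at an adjusted p under 0.05, where 5.47% and 7.75% of all 16007 genes tested were called lower and higher. The members' median log2 fold change was -0.76, against 0.01 over all genes. All 3 light libraries lay below all 3 no-light libraries for 28 members and above them for 2, against 13.7% and 16.5% of all genes. In the single-drug experiment 32 members were lower and 1 higher, where 12.6% and 11.4% of 16249 genes were called, and the median was -1.19, against 0.02 over all genes. There the light libraries lay below the no-light libraries for 32 members and above for 1, against 20.1% and 20.3% of all genes.

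**Figure D2:**
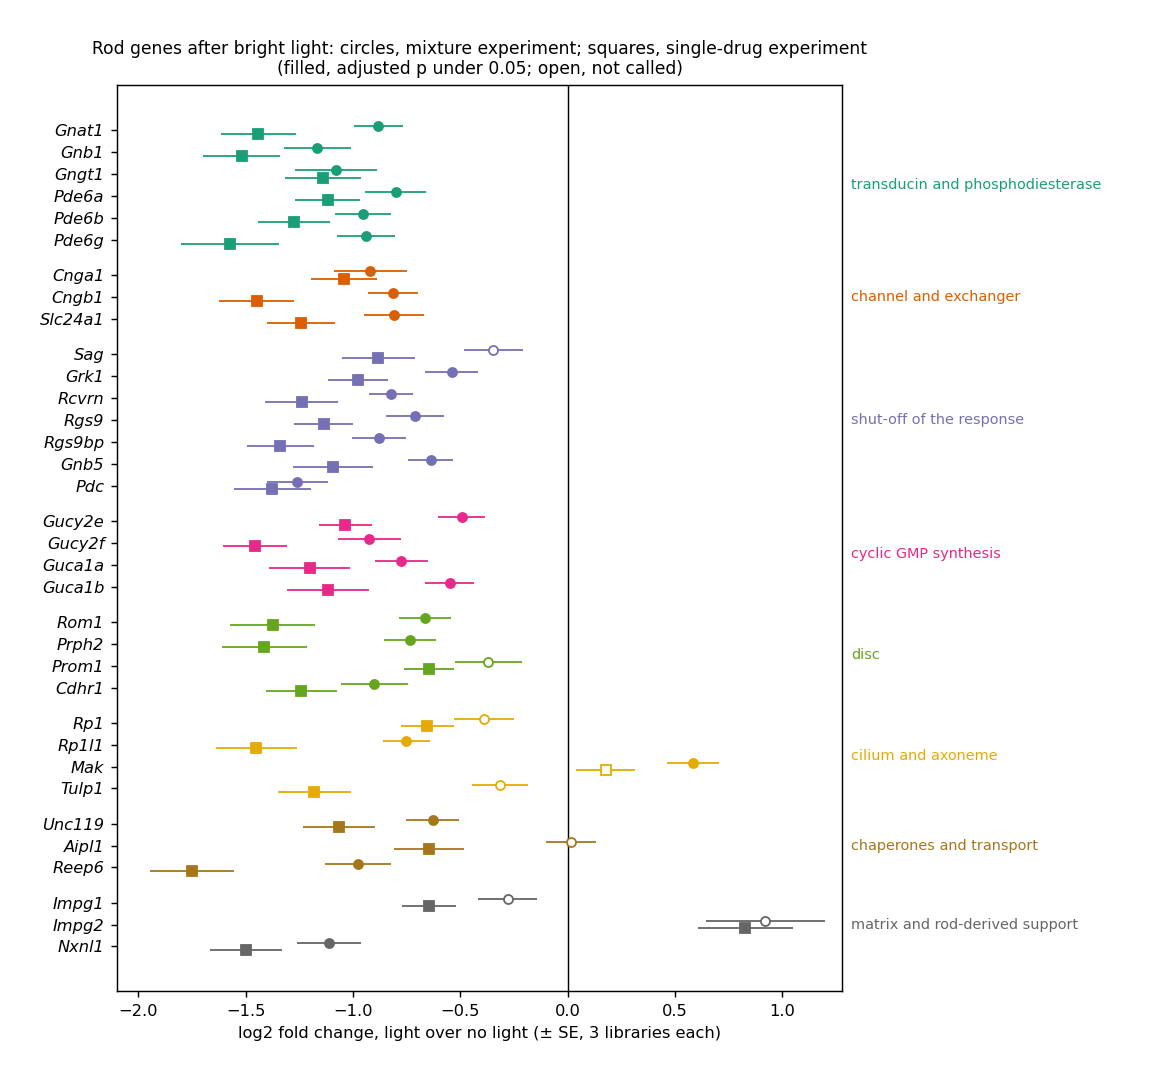
Log2 fold change of light over no light for each of the 34 rod genes, with its SE, in the mixture experiment (circles) and the single-drug experiment (squares), 3 libraries a group, coloured by role; filled symbols had an adjusted p under 0.05. Most symbols lie left of 0, Impg2 lies right of it in both experiments (0.92 and 0.83), and Mak in both (0.58 and 0.18, the second not called).

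All 6 transducin and phosphodiesterase genes were lower after light in both experiments, with median log2 fold changes of -0.95 and -1.36 in the mixture and single-drug experiments. Gnat1 (ENSMUSG00000034837, chromosome 9, 107674474 to 107679712, GRCm38) had 8162, 8066 and 9374 CPM after light, against 16157, 14115 and 16923 CPM without light in the mixture experiment, a log2 fold change of -0.88 ± 0.11 (adjusted p = 0.000419). Its light libraries in the single-drug experiment had 6705, 4984 and 6761 CPM, against 16602, 16077 and 17453 CPM without light, -1.44 ± 0.17 (adjusted p = 0.000113). The highest light library was well below the lowest no-light library in both. Gnb1, the transducin beta subunit (ENSMUSG00000029064, chromosome 4, 155491361 to 155559269), changed most of the 6 in the mixture experiment, with 3622, 3442 and 4471 CPM after light, against 9408, 7213 and 9277 CPM without light, -1.17 ± 0.16 (adjusted p = 0.000531). Pde6a, the catalytic alpha subunit of the phosphodiesterase, changed least of the 6, with 2411, 2472 and 2798 CPM after light, against 4919, 3641 and 4825 CPM without light, -0.80 ± 0.14 (adjusted p = 0.00322). For both genes the groups did not overlap, and in the single-drug experiment they stood at -1.52 ± 0.18 and -1.12 ± 0.15. Pde6b, the catalytic beta subunit (ENSMUSG00000029491, chromosome 5, 108388391 to 108432397), had 1271, 1181 and 1515 CPM after light, against 2736, 2361 and 2595 CPM without light, -0.96 ± 0.13 (adjusted p = 0.000577), and -1.28 ± 0.17 in the single-drug experiment. Gngt1, the transducin gamma subunit, fell by 1.08 and 1.14 on the log2 scale, and Pde6g, the inhibitory gamma subunit, by 0.94 and 1.57.

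The 3 genes of the channel and exchanger were also lower in both, with medians of -0.81 and -1.24. Cnga1, the alpha subunit of the cyclic nucleotide-gated channel (ENSMUSG00000067220, chromosome 5, 72603696 to 72642752), had 526, 506 and 645 CPM after light, against 1228, 860.4 and 1083 CPM without light in the mixture experiment, -0.92 ± 0.17 (adjusted p = 0.00409). In the single-drug experiment it had 586, 466 and 538 CPM after light, against 1078, 1006 and 1193 CPM without light, -1.04 ± 0.15 (adjusted p = 0.000273). Slc24a1, the sodium, calcium and potassium exchanger of the rod outer segment, had 1168, 1101 and 1478 CPM after light, against 2300.4, 1964 and 2297 CPM without light, -0.81 ± 0.14 (adjusted p = 0.00257), and -1.24 ± 0.16 in the single-drug experiment. Neither gene's groups overlapped in either experiment. Cngb1, the channel's beta subunit, stood at -0.81 ± 0.11 and -1.45 ± 0.17.

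The 7 genes grouped under shut-off of the response include Pdc and Rcvrn, which act on transducin and on Grk1 rather than ending the response. Of the group, 6 were called lower in the mixture experiment and all 7 in the single-drug experiment, with medians of -0.71 and -1.14. Pdc, phosducin, which binds transducin beta and gamma subunits (ENSMUSG00000006007, chromosome 1, 150319417 to 150333906), had the largest fall of all 34 members in the mixture experiment, with 1413, 1569 and 1767 CPM after light, against 4254, 3364 and 3761 CPM without light, -1.26 ± 0.14 (adjusted p = 0.000165). Its single-drug value was -1.38 ± 0.18 (adjusted p = 0.000148). Sag, rod arrestin, which caps the activated pigment (ENSMUSG00000056055, chromosome 1, 87803680 to 87845158), had 4007, 3484 and 4700.3 CPM after light, against 5066, 5231 and 5201 CPM without light in the mixture experiment, -0.35 ± 0.14 (adjusted p = 0.129). The Sag groups did not overlap there, but the test was not passed. DESeq2 called Sag lower in the mixture experiment, at -0.36 (adjusted p = 0.0411). Sag in the single-drug experiment had 3271, 2456 and 3350.3 CPM after light, against 6069.6, 4829 and 5826 CPM without light, and was lower at -0.88 ± 0.17 (adjusted p = 0.00185). Grk1, the kinase that phosphorylates the activated pigment, fell by 0.54 and 0.98 on the log2 scale, and Rcvrn, the calcium sensor that holds Grk1 in check, by 0.82 and 1.24. The 3 members of the GTPase-activating complex, Rgs9, its anchor Rgs9bp and its partner Gnb5, fell by 0.71, 0.88 and 0.64 in the mixture experiment and by 1.14, 1.34 and 1.09 in the single-drug experiment.

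All 4 genes of cyclic GMP synthesis were lower in both experiments, with medians of -0.66 and -1.16. Gucy2f, the less abundant of the pair of retinal guanylate cyclases here (ENSMUSG00000042282, chromosome X, 142081160 to 142196931), had 271, 242 and 324 CPM after light, against 581, 466 and 542 CPM without light in the mixture experiment, -0.92 ± 0.15 (adjusted p = 0.00162). Gucy2e, the other cyclase (ENSMUSG00000020890, chromosome 11, 69218117 to 69237036), had 661, 666 and 738 CPM after light, against 1009.8, 859 and 1042 CPM without light, -0.49 ± 0.11 (adjusted p = 0.01), a smaller change, though the groups did not overlap. The single-drug values were -1.46 ± 0.15 for Gucy2f and -1.04 ± 0.12 for Gucy2e. Guca1a and Guca1b, the calcium-binding activators of the cyclases, fell by 0.78 and 0.55 in the mixture experiment and by 1.20 and 1.12 in the single-drug experiment. The mixture-experiment call of Gucy2e was lost without light replicate 1, and that of Grk1 without light replicate 2, no-light replicate 1 or no-light replicate 3.

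Among the 4 disc genes, 3 passed the test as lower in the mixture experiment and all 4 in the single-drug experiment, with medians of -0.70 and -1.31. Prph2, the tetraspanin of the disc rim (ENSMUSG00000023978, chromosome 17, 46910459 to 46924933), had 4013, 3581 and 4314 CPM after light, against 6194, 6295 and 7314 CPM without light in the mixture experiment, -0.73 ± 0.12 (adjusted p = 0.00196). It had 2839, 2046 and 3077 CPM after light, against 7079, 6896 and 7249.9 CPM without light in the single-drug experiment, -1.41 ± 0.20 (adjusted p = 0.000198). Rom1, its partner in the rim (ENSMUSG00000071648, chromosome 19, 8927382 to 8929356), had 1403, 1272 and 1523 CPM after light, against 2024, 2169 and 2470.3 CPM without light, -0.67 ± 0.12 (adjusted p = 0.00351), and -1.37 ± 0.20 in the single-drug experiment. Neither rim gene had overlapping groups. Cdhr1, a cadherin at the base of the outer segment, changed most of the 4 in the mixture experiment, with 1130.5, 1104 and 1498 CPM after light, against 2565, 1945 and 2463 CPM without light, -0.90 ± 0.16 (adjusted p = 0.00265). Prom1, prominin of the newly forming discs, changed least, with 886, 814 and 1063 CPM after light, against 1315, 1053 and 1204 CPM without light, -0.37 ± 0.16 (adjusted p = 0.157). The Prom1 groups overlapped there, while in the single-drug experiment it was lower at -0.65 ± 0.12 (adjusted p = 0.00107).

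The 4 cilium and axoneme genes moved less uniformly: 1 was lower and 1 higher in the mixture experiment, 3 were lower and none higher in the single-drug experiment, and the medians were -0.35 and -0.92. Rp1l1, a microtubule-associated protein of the axoneme, had 497, 461 and 549 CPM after light, against 798, 813 and 926 CPM without light in the mixture experiment, -0.75 ± 0.11 (adjusted p = 0.000902). Rp1, its paralog on the axoneme (ENSMUSG00000025900, chromosome 1, 4290846 to 4409241), had 1840.0, 1761 and 2133 CPM after light, against 2827, 2110.2 and 2579 CPM without light, -0.39 ± 0.14 (adjusted p = 0.0979). The Rp1l1 groups did not overlap and those of Rp1 did. DESeq2 called Rp1 lower in this experiment, as did the fits with the lens fibre score and without no-light replicate 2. The single-drug fit had Rp1l1 lower at -1.45 ± 0.19 (adjusted p = 0.000148) and Rp1 at -0.65 ± 0.12 (adjusted p = 0.00146). Tulp1, a tubby-like protein of outer segment trafficking, had 640.3, 586 and 692 CPM after light, against 699, 803 and 886 CPM without light in the mixture experiment, -0.32 ± 0.13 (adjusted p = 0.151), and was lower in the single-drug experiment at -1.18 ± 0.17 (adjusted p = 0.000229). Its mixture groups did not overlap, although the test was not passed. Mak, a kinase that limits the length of the photoreceptor cilium (ENSMUSG00000021363, chromosome 13, 41025120 to 41079706), had 330.0, 326 and 353 CPM after light, against 247, 194 and 233 CPM without light, and was higher at 0.58 ± 0.12 (adjusted p = 0.00758). All 3 light libraries lay above all 3 no-light libraries for Mak in that experiment. Mak had 294, 269 and 273 CPM after light, against 237, 232 and 271 CPM without light in the single-drug experiment, overlapping values, with 0.18 ± 0.14 (adjusted p = 0.385). When FPKM replaced counts, limma called Mak higher there too, at 0.39 and 0.40 with pseudocounts of 1 and 0.1.

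Of the 3 chaperone and transport genes 2 were lower in the mixture experiment and 3 in the single-drug experiment, with medians of -0.63 and -1.06. Reep6, an endoplasmic reticulum protein of rods, had 447, 339 and 472 CPM after light, against 796, 723 and 958 CPM without light in the mixture experiment, -0.98 ± 0.16 (adjusted p = 0.00158). In the single-drug experiment it had the largest fall of all members, with 286, 205 and 307 CPM after light, against 883, 915 and 885 CPM without light, -1.75 ± 0.20 (adjusted p = 9.12e-05). Aipl1, a chaperone that the rod phosphodiesterase needs, had 893, 755 and 844 CPM after light, against 779.6, 770.4 and 916 CPM without light in the mixture experiment, overlapping values, 0.02 ± 0.12 (adjusted p = 0.952). Aipl1 had 571, 474 and 657 CPM after light, against 858, 886 and 919 CPM without light in the single-drug experiment, groups that did not overlap, and it was lower at -0.65 ± 0.16 (adjusted p = 0.00973). That call was lost without light replicate 2. Unc119, a lipid-binding carrier of the transducin alpha subunit, fell by 0.63 and 1.06 on the log2 scale.

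The 3 genes of the matrix and rod-derived support went in different directions, 1 being called lower in the mixture experiment, and 2 lower and 1 higher in the single-drug experiment. Impg2, a proteoglycan of the interphotoreceptor matrix (ENSMUSG00000035270, chromosome 16, 56204313 to 56273756), had 2214, 1534 and 1633 CPM after light, against 1164, 617 and 1062 CPM without light in the mixture experiment, 0.92 ± 0.28 (adjusted p = 0.0501), which missed the threshold. In the single-drug experiment it had 1769, 1291 and 1641 CPM after light, against 805, 1020.5 and 823 CPM without light, and was higher at 0.83 ± 0.22 (adjusted p = 0.0128). All light libraries lay above all no-light libraries in both experiments, and the single-drug call was lost without light replicate 1 or without no-light replicate 3. Impg1, the other matrix proteoglycan (ENSMUSG00000032343, chromosome 9, 80313330 to 80465481), had 588, 547 and 644 CPM after light, against 801, 606 and 752 CPM without light in the mixture experiment, -0.28 ± 0.14 (adjusted p = 0.218), and was lower in the single-drug experiment at -0.65 ± 0.13 (adjusted p = 0.00178). Its mixture groups overlapped. Nxnl1, which encodes a cone-supporting factor made by rods, had 192, 183 and 243 CPM after light, against 473, 381 and 483 CPM without light, -1.11 ± 0.15 (adjusted p = 0.000509), and -1.50 ± 0.17 in the single-drug experiment.

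The sequences upstream of 5 members are shown because these genes share a short motif or differ in direction: Cngb1 and Gucy2f fell in both experiments, Sag and Aipl1 fell in the single-drug experiment alone by the test, and Impg2 rose in the single-drug experiment. Each run is the 250 bases before the annotated start, 5′ to 3′ on the gene's own strand, from RefSeq on GRCm38.p6, in lower case with 2 motifs in capitals. The first motif, TAATCC or its reverse complement GGATTA, is the core letters bound by the photoreceptor factor CRX, and the second, TGCTGA or TCAGCA, is the core letters bound by the rod factor NRL. The Cngb1 window is chr8:95306586-95306835, minus strand. The Gucy2f window is chrX:142196937-142197186, minus strand. The Sag window is chr1:87803430-87803679, plus strand. The Aipl1 window is chr11:72037510-72037759, minus strand. The Impg2 window is chr16:56204063-56204312, plus strand.
Cngb1: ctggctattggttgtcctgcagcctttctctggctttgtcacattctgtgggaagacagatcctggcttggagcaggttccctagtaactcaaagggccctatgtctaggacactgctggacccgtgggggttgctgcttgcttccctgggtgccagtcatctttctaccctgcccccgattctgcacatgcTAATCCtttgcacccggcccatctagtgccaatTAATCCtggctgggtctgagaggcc
Gucy2f: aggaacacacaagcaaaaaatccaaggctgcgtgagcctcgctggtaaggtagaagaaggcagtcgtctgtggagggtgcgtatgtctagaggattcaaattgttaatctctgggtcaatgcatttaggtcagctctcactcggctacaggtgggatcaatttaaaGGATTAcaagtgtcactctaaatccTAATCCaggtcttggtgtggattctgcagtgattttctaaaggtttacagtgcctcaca
Sag: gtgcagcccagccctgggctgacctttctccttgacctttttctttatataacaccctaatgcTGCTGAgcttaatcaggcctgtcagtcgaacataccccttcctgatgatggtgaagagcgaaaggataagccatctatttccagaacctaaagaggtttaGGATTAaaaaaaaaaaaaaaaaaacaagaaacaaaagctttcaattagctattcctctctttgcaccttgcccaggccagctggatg
Aipl1: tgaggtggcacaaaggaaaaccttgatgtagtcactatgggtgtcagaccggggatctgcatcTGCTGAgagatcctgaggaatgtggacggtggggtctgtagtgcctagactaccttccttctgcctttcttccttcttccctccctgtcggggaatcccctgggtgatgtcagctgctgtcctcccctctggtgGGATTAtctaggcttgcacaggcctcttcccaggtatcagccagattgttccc
Impg2: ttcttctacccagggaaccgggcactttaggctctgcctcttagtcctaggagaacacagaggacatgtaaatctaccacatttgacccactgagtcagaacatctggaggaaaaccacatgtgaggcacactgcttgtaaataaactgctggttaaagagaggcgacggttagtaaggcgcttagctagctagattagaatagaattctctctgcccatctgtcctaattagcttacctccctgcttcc

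Promoter windows were found for 25 of the 34 members, 29 windows in all, since some genes have several starts. None was found for Gnat1, Guca1b, Pde6a, Pde6g, Rcvrn, Reep6, Rgs9bp, Rp1 and Rp1l1. TAATCC stood on either strand in 11 of the 29 windows (37.9%), against 6.25% of 32851 windows of the same length over all genes. Besides the 4 shown, the genes with it were Cnga1, Gnb5, Gngt1, Guca1a, Gucy2e, Mak and Unc119. TGCTGA stood in 6 windows (20.7%), against 16.1% over all genes, those of Aipl1, Nxnl1, Pde6b, Rgs9, Sag and Unc119. No letter can belong to a match of both motifs, and the windows of Impg2 and Impg1 hold neither. Mak, which was higher after light in the mixture experiment, and Gucy2f, which was lower in both, each hold TAATCC. For Mak this was 1 match over 2 windows, and Unc119 had 1 match of each motif over 3 windows. A match is a description of letters, not of binding.

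Whether the light effect differed between the experiments was tested in 1 model over both. For all 34 members the single-drug log2 fold change was the lower of the 2, with a median difference of -0.44, and 0 passed an adjusted p of 0.05 by edgeR's quasi-likelihood test, where 0.0% of 16645 genes did. At an unadjusted p under 0.05 there were 17 members, where 15.1% of all genes were. DESeq2 called 3 members, Gucy2e, Tulp1 and Aipl1, and 4.45% of the genes to which it gave an adjusted p, as its shares are given throughout, and limma voom called 0 members and 0.0661% of all genes. The difference was -0.87 ± 0.22 for Tulp1, the largest, -0.78 ± 0.26 for Reep6, -0.71 ± 0.24 for Rom1 and -0.66 ± 0.21 for Aipl1, against -0.07 ± 0.27 for Gngt1, -0.10 ± 0.37 for Impg2 and -0.12 ± 0.24 for Pdc. When light replicate 3 of the single-drug experiment was left out, Tulp1 was called. Per the labels, each experiment was run and analysed on its own, so any batch and the experiment cannot be told apart here.

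The next comparisons ask how the rod genes stood when drug preceded the light, set against light alone. With BMT 30 of 34 members were higher and 1 lower, where 7.96% and 9.78% of all genes were called, and the median log2 fold change was 0.74, against -0.02 over all genes. With MDB 22 were higher and 2 lower, where 3.7% and 5.93% were called, at a median of 0.58, against 0.00 over all genes. All 3 BMT libraries lay above all 3 light libraries for 30 members (17.2% of all genes), and the MDB libraries for 26 (16.5%). These comparisons use the same light libraries as the light comparison, so the values of the comparisons are not independent. With BRM 27 were higher and 1 lower (7.08% and 7.32% of all genes), with MTP 31 and 0 (5.37% and 4.91%), with TAM 31 and 0 (6.6% and 4.0%), and with DOX 29 and 1 (6.79% and 5.06%). The medians were 0.81, 0.96, 0.99 and 0.89 for BRM, MTP, TAM and DOX, and those over all genes lay between -0.03 and 0.00. The drug libraries lay above all light libraries for 30 members with BRM (19.0% of all genes), 31 with MTP (13.4%), 31 with TAM (13.6%) and 30 with DOX (13.7%). When only the TAM and light libraries entered the fit, 18 members were called with TAM, where 31 were called in the fit over all groups of the experiment.

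**Figure D3:**
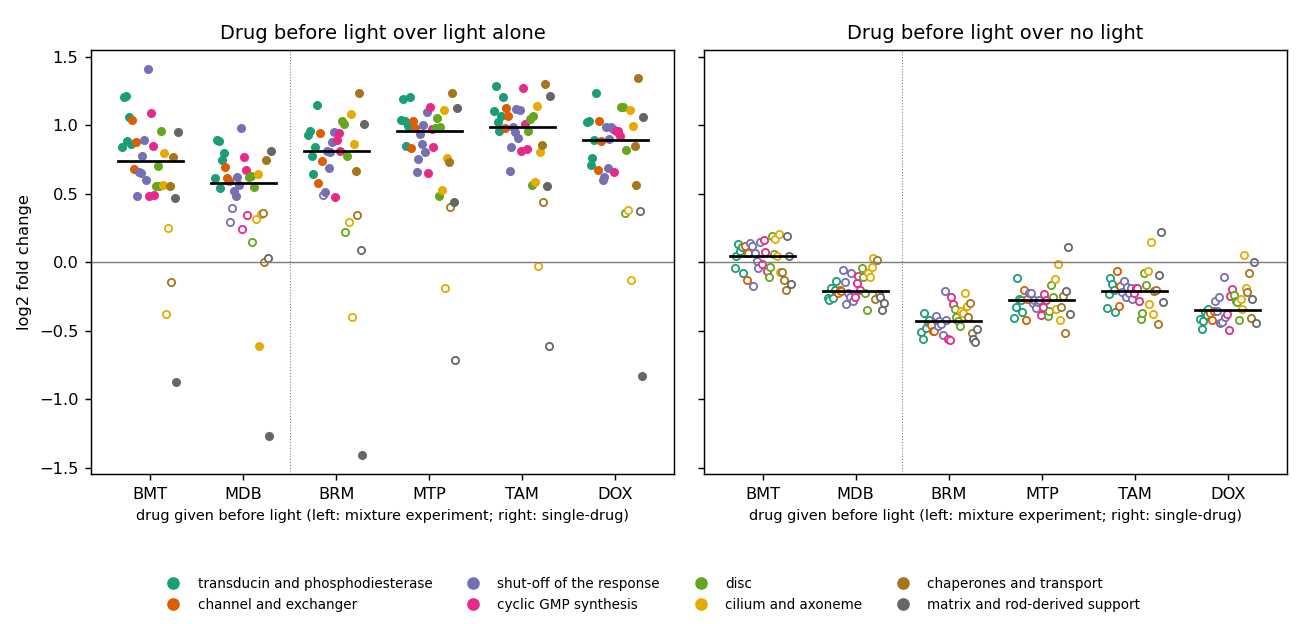
Log2 fold change of each of the 34 rod genes (points, coloured by role) for each drug before light over light alone (left panel) and over no light (right panel), with the median as a bar; filled points had an adjusted p under 0.05. Against light alone the medians were 0.58 to 0.99, and against no light -0.43 to 0.04, where no member was called.

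Transducin, phosphodiesterase and channel genes were higher than after light alone in every drug group, all 9 of 9 by the test in each. Gnat1 had 14947, 13499.9 and 17429 CPM with BMT and 11914, 13756 and 13609.7 CPM with MDB, against 8162, 8066 and 9374 CPM after light, log2 fold changes of 0.84 ± 0.11 (adjusted p = 0.000622) and 0.62 ± 0.11 (adjusted p = 0.00496). Among the single drugs it had 11347, 13315 and 10506 CPM with BRM, 13769, 12704 and 11370.1 CPM with MTP, 12173, 10773 and 16781 CPM with TAM and 14920.1, 10659.9 and 11939 CPM with DOX, against 6705, 4984 and 6761 CPM after light. Every drug library lay above every light library, at 0.93 ± 0.17, 1.04 ± 0.17, 1.11 ± 0.17 and 1.02 ± 0.17 for BRM, MTP, TAM and DOX (adjusted p = 0.00359, 0.00243, 0.00143 and 0.00353). Gnb1 stood at 1.21 ± 0.16 with BMT, 0.89 ± 0.16 with MDB and 1.29 ± 0.18 with TAM, its highest single-drug value. Cnga1 had 1074, 949 and 1427 CPM with BMT and 797, 991 and 923 CPM with MDB, against 526, 506 and 645 CPM after light, 1.04 ± 0.17 (adjusted p = 0.002) and 0.69 ± 0.17 (adjusted p = 0.0251). Its groups did not overlap.

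Of the 7 genes grouped under shut-off all were higher than after light with BMT, MTP, TAM and DOX, 6 with BRM and 5 with MDB. Grk1, missed with MDB, was called higher there in 4 of the alternatives, and Sag, missed with BRM, in 3. Pdc had the highest log2 fold change of all members in both mixtures, with 3973, 3523 and 5126 CPM with BMT and 2982, 3287 and 3089 CPM with MDB, against 1413, 1569 and 1767 CPM after light, 1.41 ± 0.14 (adjusted p = 0.000142) and 0.98 ± 0.14 (adjusted p = 0.00112). Sag had 5388, 4810.1 and 6874 CPM with BMT and 4605, 5383 and 4946 CPM with MDB, against 4007, 3484 and 4700.3 CPM after light, 0.49 ± 0.14 (adjusted p = 0.032) and 0.29 ± 0.14 (adjusted p = 0.228). The BMT libraries lay above the light libraries by a small gap, and the MDB libraries overlapped them. With the single drugs Sag stood at 0.49 ± 0.17 with BRM, not called, and 0.66 ± 0.17, 0.67 ± 0.17 and 0.60 ± 0.17 with MTP, TAM and DOX. The Sag calls with BMT, MTP, TAM and DOX were each lost when FPKM replaced counts, and those with MTP and DOX with the lens fibre score in the fit.

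Cyclase genes and their activators were all higher than after light with BMT and with each single drug, and 2 of 4 with MDB. Guca1b, missed with MDB, was called higher there in 3 of the alternatives. When FPKM replaced counts, the BMT calls of Gucy2e and Guca1b were lost, with those of Sag, Prom1, Rp1 and Impg1, and Gucy2e then stood at 0.24 (adjusted p = 0.0718) by limma. Gucy2f had 565, 502 and 709.7 CPM with BMT and 422, 515 and 490.4 CPM with MDB, against 271, 242 and 324 CPM after light, 1.09 ± 0.15 (adjusted p = 0.000633) and 0.77 ± 0.15 (adjusted p = 0.00619). Gucy2e stood at 0.48 ± 0.11 (adjusted p = 0.0105) with BMT and, with overlapping libraries, at 0.24 ± 0.11 (adjusted p = 0.2) with MDB. Of the 4 disc genes all were higher with BMT, MTP and TAM and 3 with MDB, BRM and DOX, Prom1 being the exception in each. Prom1, missed with DOX, was called higher there in 5 of the alternatives. Prph2 had 6312, 5608 and 7439 CPM with BMT and 5553, 6248 and 6607 CPM with MDB, against 4013, 3581 and 4314 CPM after light, 0.70 ± 0.12 (adjusted p = 0.00254) and 0.63 ± 0.12 (adjusted p = 0.00646), with no overlap. Prph2 had 5023, 6087 and 4951 CPM with BRM, 6363, 5472 and 4712 CPM with MTP, 4768, 4529 and 7124 CPM with TAM and 7225, 5247 and 4997 CPM with DOX, against 2839, 2046 and 3077 CPM after light, all above the light libraries. Reep6 had the highest log2 fold change of all members with each single drug, 1.23 ± 0.19 with BRM, 1.23 ± 0.19 with MTP, 1.30 ± 0.19 with TAM and 1.34 ± 0.19 with DOX.

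The cilium and axoneme genes again had lower medians than the transduction genes in every drug comparison, 0.41 with BMT and 0.33 with MDB, and 0.58, 0.64, 0.70 and 0.69 with BRM, MTP, TAM and DOX. The transducin and phosphodiesterase medians were 0.97, 0.77, 0.89, 1.03, 1.09 and 0.96 in the same order of drugs, and no test of roles against each other was made. Rp1 had 2847, 2406 and 3218 CPM with BMT and 2051, 2528 and 2541 CPM with MDB, against 1840.0, 1761 and 2133 CPM after light, 0.56 ± 0.14 (adjusted p = 0.0191) and 0.31 ± 0.14 (adjusted p = 0.212). Its BMT libraries lay above the light libraries and its MDB libraries overlapped them. Mak had 286, 215 and 275 CPM with BMT and 195, 229 and 235 CPM with MDB, against 330.0, 326 and 353 CPM after light, -0.38 ± 0.12 (adjusted p = 0.0512) and -0.62 ± 0.12 (adjusted p = 0.00737). All 6 drug libraries lay below the 3 light libraries, and of the 6 drug comparisons the test called Mak in that with MDB. Mak was called lower with BMT by DESeq2, limma voom, the replicate block, the lens fibre score, both FPKM fits and without BMT replicate 1. With BRM it was called lower by DESeq2, both FPKM fits and the fit of the compared groups alone. BMT against MDB was not called for Mak (0.24 ± 0.12). Aipl1 was called with DOX, at 0.57 ± 0.16 (adjusted p = 0.0372), and with no other drug by the same test. That call was lost with the lens fibre score or a replicate block in the fit. It was also lost with the compared groups alone and when FPKM replaced counts. With BMT both FPKM fits called Aipl1 lower, at -0.34, where edgeR had -0.15, not called. DESeq2 called Aipl1 higher with TAM, at 0.46.

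**Figure D4:**
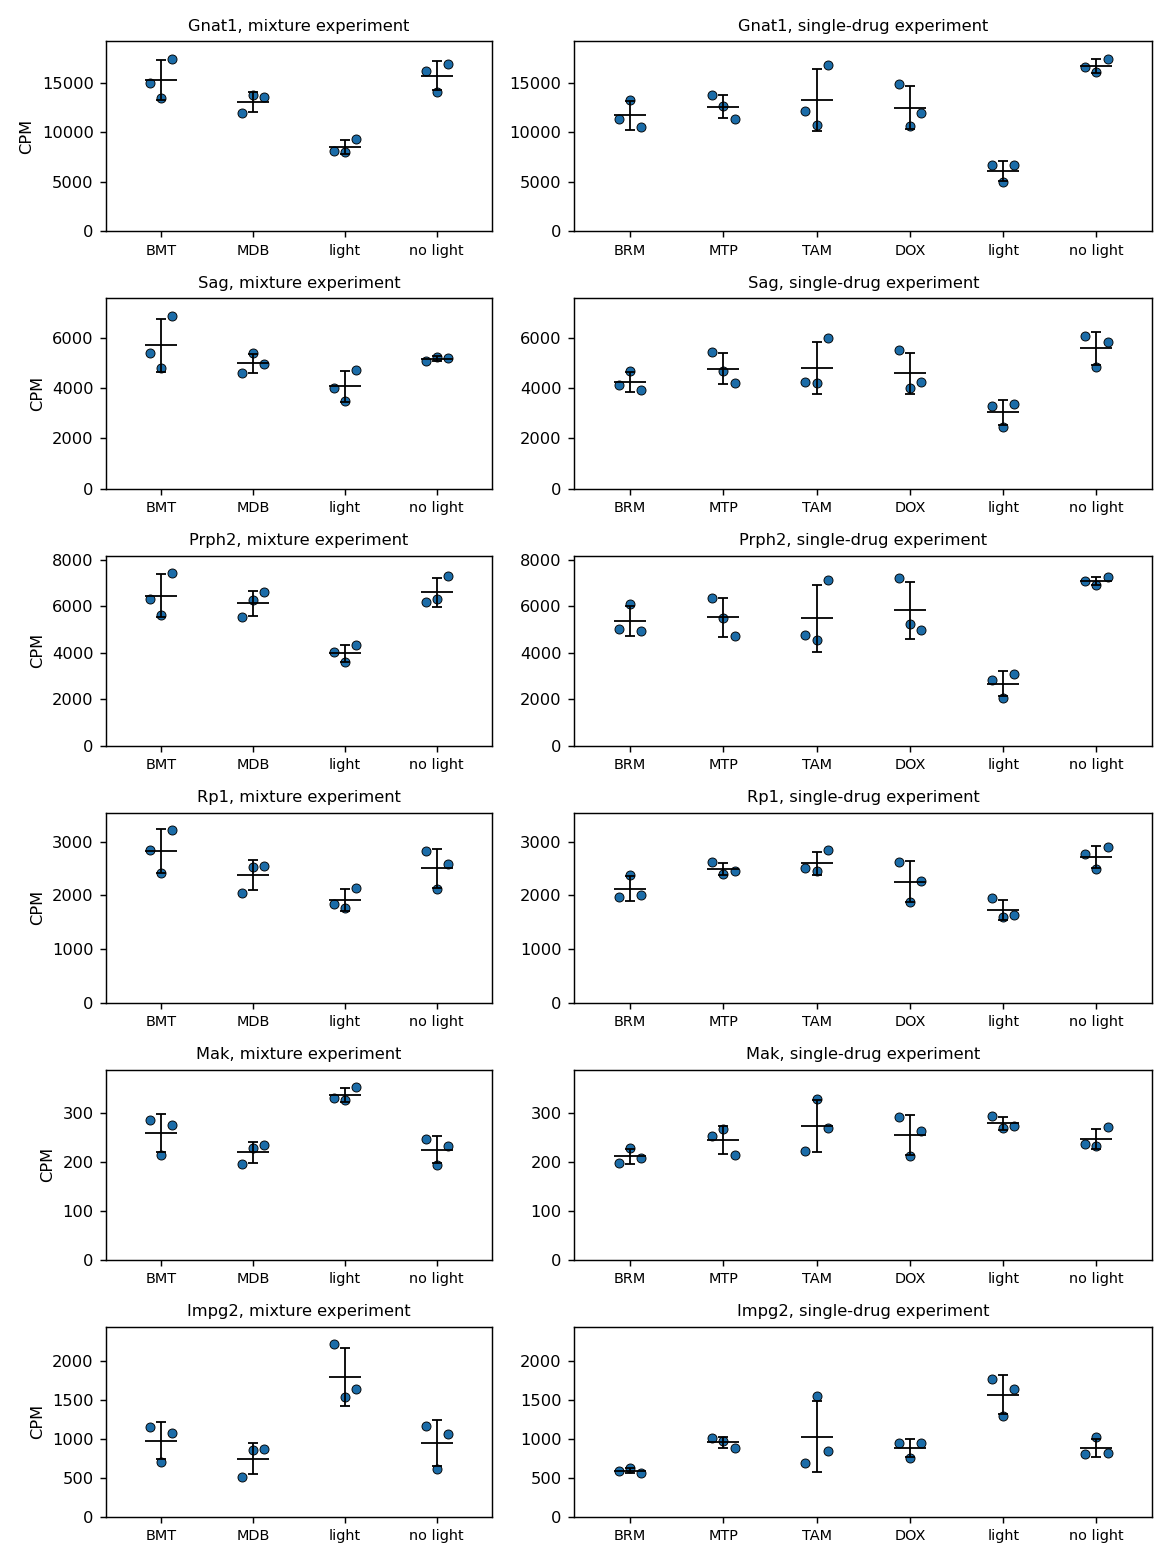
CPM of Gnat1, Sag, Prph2, Rp1, Mak and Impg2 in each library (points) with the group mean and SD (bars), mixture experiment at left and single-drug experiment at right, vertical axes from 0. Gnat1 and Prph2 are lowest after light alone in both experiments, and Impg2 is highest there apart from TAM replicate 2 at 1543 CPM.

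Impg2, like Mak, ran opposite to most members with drug as well. It had 1148, 707 and 1074 CPM with BMT and 514, 852 and 869 CPM with MDB, against 2214, 1534 and 1633 CPM after light, and was lower at -0.88 ± 0.28 (adjusted p = 0.0497) and -1.27 ± 0.28 (adjusted p = 0.014). No drug library reached the lowest light library in the mixture experiment, and the BMT call was lost when any 1 BMT or light library was left out, with RLE scaling and with limma voom, the MDB call without MDB replicate 1 or light replicate 1. In the single-drug experiment it had 592, 622 and 558 CPM with BRM, against 1769, 1291 and 1641 CPM after light, -1.41 ± 0.22 (adjusted p = 0.00177), a larger change than any other member showed with BRM. It had 947, 756 and 945 CPM with DOX, -0.83 ± 0.22 (adjusted p = 0.0263), and 1015, 973 and 877 CPM with MTP, -0.71 ± 0.22 (adjusted p = 0.0516). With TAM it had 693, 1543 and 842 CPM, -0.61 ± 0.22 (adjusted p = 0.0919), and the second TAM library lay within the light range. The MTP and DOX libraries lay below all light libraries, and the DOX call was lost without any 1 light library and without DOX replicate 1 or 2. The MTP and TAM values, missed by this test, were called lower in 6 of the alternatives each.

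Single libraries decided some of these calls. When BRM replicate 2 or the second light library of that experiment was left out, 7 of the 28 calls with BRM were lost, those of Gngt1, Pde6a, Cnga1, Grk1, Gucy2e, Guca1b and Unc119. Without light replicate 2, 8 of 31 calls with MTP were lost, those of Sag, Gnb5, Guca1b, Prom1, Rp1, Tulp1, Unc119 and Impg1, and 7 of the same 8, all but Tulp1, without MTP replicate 1. The MTP call of Impg1 was lost without any 1 MTP or light library. Without TAM replicate 3 or light replicate 2 the TAM calls of Sag, Guca1b and Impg1 were lost. Without DOX replicate 1, 7 of 30 calls with DOX were lost, those of Gngt1, Cnga1, Sag, Grk1, Guca1b, Aipl1 and Impg2, and without light replicate 2 the same apart from Guca1b, while Sag, Aipl1 and Impg2 were also lost without light replicate 1. In the mixture experiment the BMT calls of Sag, Prom1, Rp1 and Impg1 were lost without BMT replicate 1 or 3 or light replicate 1 or 2, and those of Guca1b without BMT replicate 3 or light replicate 1 or 2, that of Gucy2e without light replicate 1. The MDB calls of Rgs9 and Cdhr1 were lost without any of MDB replicates 1 to 3 or light replicates 1 and 2, those of Pde6a, Cnga1 and Slc24a1 without MDB replicate 2 or 3 or light replicate 1 or 2, that of Gngt1 without light replicate 1 or 2, and that of Reep6 without MDB replicate 3. The MDB calls of Gnat1, Pde6a, Rgs9 and Cdhr1 were also lost when FPKM replaced counts. Calls with MDB were gained as well, Unc119 being called higher in 4 of the alternatives and Tulp1 in 1. With DOX, Rp1 was called higher in 6 of the alternatives and Impg1 in 3.

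Against no light, 0 of the 34 members were called for any drug or mixture by edgeR's quasi-likelihood test, and 0.0% of all genes were called in each of these 6 comparisons. At an unadjusted p under 0.05 there were 0 members with BMT (6.3% of all genes), 5 with MDB (10.3%), 23 with BRM (15.6%), 8 with MTP (8.59%), 2 with TAM (8.17%) and 19 with DOX (13.0%). DESeq2 called 10 with BRM, all lower (Pde6a, Gnb1, Slc24a1, Rgs9, Rgs9bp, Grk1, Gucy2e, Gucy2f, Prom1 and Impg1), where it called 3.72% of genes. With the others DESeq2 called 0 members, and 0.0815% of genes with BMT, 0.138% with MDB, 0.0247% with MTP, 0.0432% with TAM and 0.408% with DOX. Limma voom called 0 members throughout, and 0.00615% of all genes with BRM and 0.0% with the others. The median log2 fold changes were 0.04 with BMT, -0.21 with MDB, -0.43 with BRM, -0.28 with MTP, -0.21 with TAM and -0.35 with DOX, against all-gene medians of -0.01 to 0.01. All 3 BRM libraries lay below all 3 no-light libraries for 32 members, where 15.1% of all genes did. The same held for 25 members with MTP (10.2% of all genes), 16 with DOX (10.4%), 5 with MDB (7.05%), 4 with TAM (6.49%) and 0 with BMT (4.72%). Gucy2f had 404, 455 and 376 CPM with BRM, against 612, 561 and 656 CPM without light, -0.57 ± 0.15 (adjusted p = 0.127). Impg1 had 554, 589 and 476 CPM with BRM, against 750.1, 766 and 875 CPM without light, -0.56 ± 0.13 (adjusted p = 0.119). Both sets were separate, with every BRM library lower. Gnat1 stood at -0.04 ± 0.11 with BMT and -0.26 ± 0.11 with MDB, and at -0.51 ± 0.17, -0.41 ± 0.17, -0.34 ± 0.17 and -0.42 ± 0.17 with BRM, MTP, TAM and DOX.

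The drugs were then set against each other within each experiment, 1 mixture pair and 6 single-drug pairs, at 1 time point, with doses not given here. No pair gave a called member by edgeR's quasi-likelihood test, where 0.111% of all genes were called for BRM against TAM and 0.0% for the other pairs. A missed threshold does not show that the drugs act alike. BMT against MDB had a median of 0.24, 8 members at an unadjusted p under 0.05 (18.7% of all genes) and 2 called by DESeq2 (4.92% of genes), Pdc at 0.43 ± 0.14 and Impg1 at 0.44 ± 0.14 by edgeR. BRM against TAM had a median of -0.21, 10 at an unadjusted p under 0.05 (19.5% of all genes) and 3 called by DESeq2 (5.42% of genes), Impg2 at -0.80 ± 0.22, Impg1 at -0.47 ± 0.13 and Prom1 at -0.35 ± 0.12 by edgeR. TAM and DOX, which act on the same class of receptor, had a median difference of 0.14 with 1 member at an unadjusted p under 0.05 (15.5% of all genes), and Gucy2f stood at 0.31 ± 0.15 and Gnat1 at 0.08 ± 0.17. The other pairs had 3 members at an unadjusted p under 0.05 for BRM against MTP (9.78% of all genes), 2 for BRM against DOX (5.13%), 0 for MTP against TAM (3.6%) and 0 for MTP against DOX (7.82%). DESeq2 called no member in these 4 pairs or for TAM against DOX, and 0.0803% of genes for BRM against MTP, 0.0% for BRM against DOX, 0.0185% for MTP against TAM, 0.00617% for MTP against DOX and 0.876% for TAM against DOX, while limma voom called 0.0% of all genes in each of the 7 pairs.

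Ratios of FPKM between partners set members against each other within a library. Impg2 over Impg1 was 1.81, 1.35 and 1.24 after light, against 0.709, 0.497 and 0.690 without light in the mixture experiment, and 1.55, 1.38 and 1.53 after light, against 0.522, 0.646 and 0.457 without light in the single-drug experiment. The light libraries all exceeded 1 and the no-light libraries did not. It averaged 0.571 ± 0.088 with BMT, 0.589 ± 0.11 with MDB, 0.535 ± 0.03 with BRM, 0.642 ± 0.024 with MTP, 0.676 ± 0.3 with TAM and 0.656 ± 0.043 with DOX (SD, n = 3 each). Gucy2f over Gucy2e was 0.361, 0.318 and 0.392 after light, against 0.529, 0.481 and 0.462 without light in the mixture experiment, and 0.414, 0.417 and 0.351 after light, against 0.512, 0.471 and 0.556 without light in the single-drug experiment, with no overlap in either. Rp1l1 over Rp1 averaged 0.267 ± 0.0066 after light, against 0.348 ± 0.054 without light, and 0.197 ± 0.027 after light, against 0.343 ± 0.025 without light in the single-drug experiment. Rom1 over Prph2, the disc rim pair, averaged 0.592 ± 0.0049 after light and 0.567 ± 0.012 without light in the mixture experiment, and 0.584 ± 0.005 after light and 0.571 ± 0.022 without light in the single-drug experiment. Gnb1 over Gnat1 averaged 0.426 ± 0.025 after light and 0.523 ± 0.038 without light in the mixture experiment, where the groups did not overlap, while they overlapped in the single-drug experiment (0.517 ± 0.035 after light and 0.537 ± 0.02 without light). None of these ratios was tested.

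**Figure D5:**
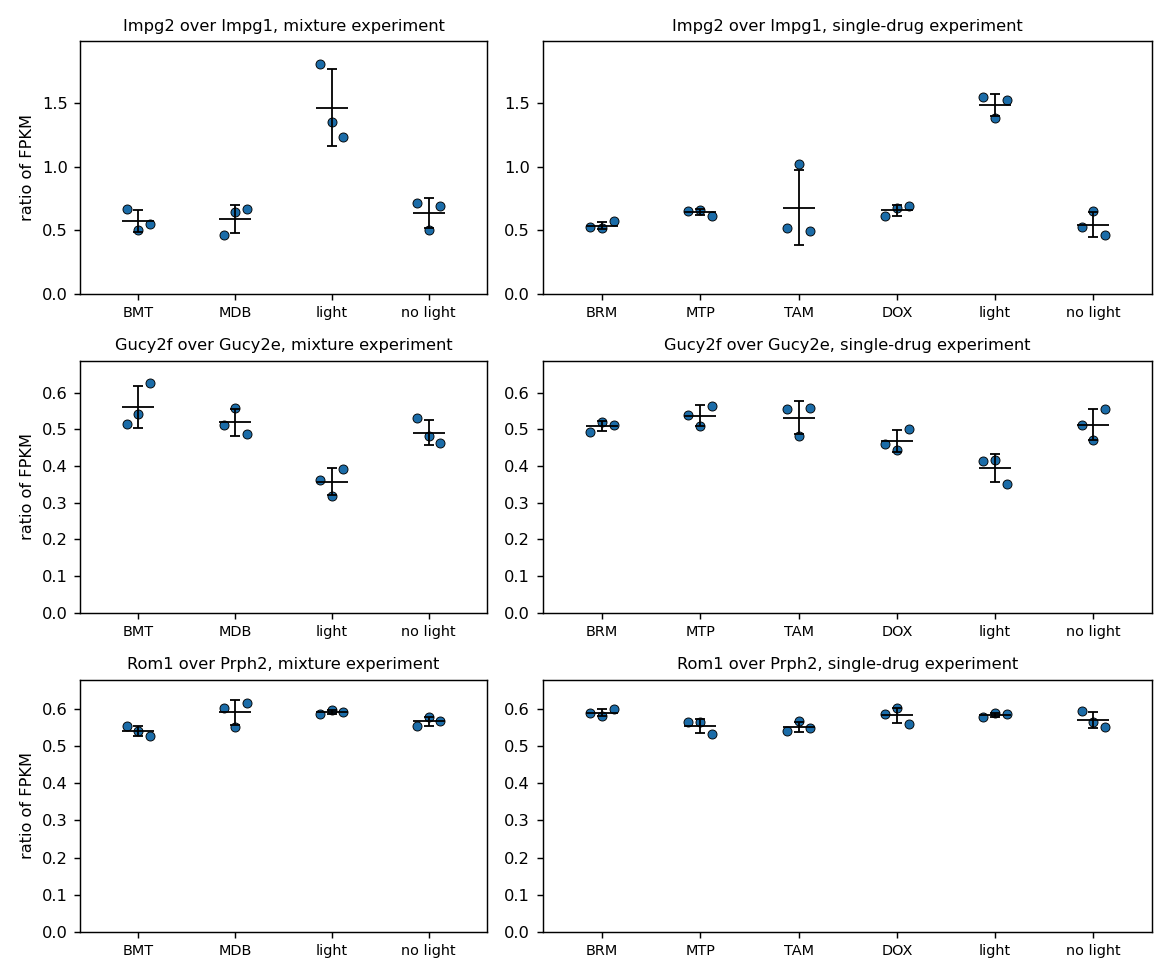
Ratio of FPKM between partner genes in each library (points), with the group mean and SD (bars), mixture experiment at left and single-drug experiment at right. Impg2 over Impg1 is above 1 in all light libraries and in TAM replicate 2, Gucy2f over Gucy2e is lowest after light alone, and Rom1 over Prph2 runs between 0.528 and 0.617 over all libraries.

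Between light and no light, the share of a member's counts held by its largest transcript differed by -4.40 to 1.98 percentage points over the 34 members in the mixture experiment and by -10.08 to 3.32 in the single-drug experiment, as light minus no light and untested. Impg1-201, the largest of Impg1, held 61.6 ± 1.24% after light and 66.0 ± 1.06% without light in the mixture experiment, and 59.8 ± 3.19% after light and 65.6 ± 0.443% without light in the single-drug experiment. Prom1-202, a smaller transcript of Prom1, held 7.69 ± 0.702% after light and 5.80 ± 0.449% without light, and 7.23 ± 0.341% after light and 4.79 ± 0.466% without light in the single-drug experiment. The groups overlapped for neither Impg1-201 nor Prom1-202 in either experiment. Prom1-206, the largest of Prom1, held 70.2 ± 4.00% after light and 80.3 ± 2.07% without light in the single-drug experiment. In the mixture experiment its groups overlapped. Some shifts differed in direction between the mixture and single-drug experiments, as for Reep6-201 (1.24 and -9.40 points) and Aipl1-001 (1.11 and -8.56 points). Impg2-001 held 94.8 ± 0.863% of Impg2 counts after light and 93.7 ± 0.103% without light in the mixture experiment, and 94.4 ± 0.608% after light and 94.2 ± 0.457% without light in the single-drug experiment. Gnb1 counts were split among several transcripts, and the largest, Gnb1-004, held 40.8 ± 2.25% after light and 39.9 ± 4.31% without light in the mixture experiment. The authors' deposited table of the single-drug experiment lists transcripts of 29 of the 34 members. That of the mixture experiment lists 8 (Cnga1, Gnb1, Gngt1, Gucy2f, Nxnl1, Pdc, Pde6b and Reep6). The p-value deposited with them is from an F test over all groups of the experiment, not from light alone. The share listed over all transcripts was not taken here, so the listed counts are not a result about the members. The authors' contrasts run the other way for light, as no light over light. The authors' deposited table gives -0.86 for Impg2-001, 1.42 for Gnat1-001 and 1.44 for Gnb1-004 in the single-drug experiment. The authors' deposited table gives -1.41 for Impg2-001 with BRM over light.

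A further list of 33 outer segment, cilium and rod membrane genes, 31 of them matched and tested, had 15 lower and 1 higher after light in the mixture experiment, at a median of -0.35, and 23 lower and 1 higher in the single-drug experiment, at -0.64. The higher gene was Cerkl, a ceramide kinase-like gene of photoreceptors, at 1.13 ± 0.15 (adjusted p = 0.00058) and 0.93 ± 0.16 (adjusted p = 0.000637), which joins Impg2 and Mak in running opposite to most. Kcnv2, a potassium channel subunit of photoreceptors, had -1.19 ± 0.13 (adjusted p = 0.000161) and -1.50 ± 0.18 (adjusted p = 0.000113). Abca4 was lower at -0.71 ± 0.12 (adjusted p = 0.00187) and -1.11 ± 0.13 (adjusted p = 0.000113).

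Set beside their cone counterparts, some rod genes had the same direction and some the opposite, the cone list having 6 of 10 lower and 2 higher after light in the mixture experiment and 7 lower and 2 higher in the single-drug experiment. Gnat1 stood at -0.88 and -1.44 after light, and its cone counterpart Gnat2 at -1.21 and -1.54, in the mixture and single-drug experiments. Sag stood at -0.35 and -0.88, and cone arrestin Arr3 at -0.68 ± 0.10 (adjusted p = 0.00116) and -1.22 ± 0.16 (adjusted p = 0.000151). Gnb1 was lower at -1.17 and -1.52, while Gnb3, listed as the cone beta subunit, was higher at 1.38 ± 0.10 (adjusted p = 1.2e-05) and 0.89 ± 0.20 (adjusted p = 0.00424). Whether bipolar or other cells gave part of the Gnb3 counts was not tested. Bipolar cell markers summed to 732 to 742 CPM after light, against 660 to 671 CPM without light in the mixture experiment. In the single-drug experiment they summed to 677 to 942 CPM after light, against 829 to 942 CPM without light. Pde6a and Pde6b were lower, while Pde6c, the cone catalytic subunit, was higher at 0.46 and 0.37. The cone channel subunit Cnga3 stood at 0.20 and -0.06, not called, where Cnga1 was lower, and Cngb3 fell by 0.81 and 1.09 as Cngb1 fell by 0.81 and 1.45. No test of a rod gene against its cone counterpart was made.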

How the data were processed

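Poly(A) RNA libraries were made with a stranded dUTP kit, per the labels' protocols, but no source used here states whether counting used strand. The submitters' processing notes name Trimmomatic, Bowtie2, TopHat2, eXpress, edgeR, limma and GRCm38.p3. The authors deposited, per transcript, expected (estimated) counts and FPKM values from eXpress, per the series' design text, and tables of their own log2 fold changes with p-values of transcripts they called significant. Here the deposited expected counts of the 102906 transcripts were summed per gene ID, rounded, filtered by filterByExpr, scaled by TMM and tested with edgeR 4.0.16 (R 4.3.3), all groups of an experiment in 1 fit, with Benjamini-Hochberg adjustment over all genes tested and a call at an adjusted p under 0.05. CPM uses the TMM-scaled totals, and deposited FPKM values were summed per gene. Alternatives were RLE scaling, no filter, DESeq2 1.42.0, limma 3.58.1 (voom, or log2 of FPKM plus 1 or 0.1), the compared groups alone, a replicate block, a lens fibre score as covariate, and each library left out. Full values are given for the members with the largest and smallest light effect of each role in the mixture experiment, for Gnat1, Pde6b, Cnga1, Sag, Prph2, Rom1 and Rp1, and for members called against the majority, plus the 3 genes of other lists with the largest light effects and the cone counterparts, and other genes named were chosen after their values were seen. The members and lists were chosen with earlier results of these data known. The fit was also run on simulated counts with known changes set in randomly picked genes. That run does not test the member calls, and its outcome is not given here.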

Additional observations from a re-analysis of the deposited data

How the results depend on the processing

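Over 235 member calls and 3525 values under alternatives, 3354 kept direction and call, 171 lost the call and 0 changed direction. The causes of the changes below were not tested. With only the compared groups in the fit, 18 members were called for TAM against light, where all groups together gave 31, and this fit has fewer libraries to estimate the spread. DESeq2 called 2 for BMT against MDB, 10 for BRM against no light, 3 for BRM against TAM and 3 for the difference of the light effect between experiments, where edgeR called 0 in each. Leaving out 1 library gave 0 to 1 for that difference, and 26 to 28 and 32 to 33 for light in the mixture and single-drug experiments, 24 to 30 for BMT, 17 to 24 for MDB, 21 to 28 for BRM, 23 to 30 for MTP, 28 to 32 for TAM and 23 to 32 for DOX, each against light. With a replicate block the counts were 28 and 33 for light in the mixture and single-drug experiments, 32 for BMT, 27 for MDB, 28 for BRM, 31 for MTP, 31 for TAM and 29 for DOX, each against light. Libraries with the same number did not deviate together (correlations of -0.22 to 0.56 in the mixture experiment, 2 of 18 pairs over 0.1, and 13 of 45 in the single-drug experiment), and 3 of 12 and 6 of 18 libraries correlated best with their own number, so the shared numbers were not taken as pairs. The Impg2 light call in the mixture experiment, missed by edgeR, was made by DESeq2, voom, the unfiltered fit, the replicate block, the lens fibre score and both FPKM fits. Depth kept no member out of the tests, since all 34 passed the count filter.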

Other observations

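Across the 34 rod genes, the length of the main transcript had a Spearman correlation of 0.20 with the light log2 fold change in the mixture experiment and 0.15 in the single-drug experiment, against 0.03 and 0.04 over all genes tested. For GC content the values were 0.07 and -0.31 among the rod genes, against 0.17 and -0.13 over all genes tested. The points share the same libraries, genes are not independent replicates, and these values are a description.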
